A study of Schizosaccharomyces pombe with 12 samples.

Results

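A group of 55 fission yeast genes had lower RNA levels in each of 3 mutant strains than in the wild type. The strains carry changes in RNA 3′ processing or in inositol pyrophosphate metabolism. The genes were chosen from a table of 6986 genes by their measured levels. Rows named SPNCRNA, which are annotated non-coding RNAs, were set aside, leaving 5462. Each count was divided by its library's total to give counts-per-million (CPM), and L was the log2 of the mutant mean plus 0.5 CPM over the wild-type mean plus 0.5 CPM. A gene was taken when its largest genotype mean was at least 5 CPM, as in 4825 genes, and when L was −0.6 or lower in all 3 mutants. Of the 55, 54 matched the RefSeq annotation and 53 are annotated as protein coding. One, snR95, is a box H/ACA small nucleolar RNA, so the description as coding genes does not hold for it, and SPAC110.05 was not matched.

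RNA was measured in Schizosaccharomyces pombe by sequencing poly(A)-selected RNA from vegetative cultures in log phase in the rich medium YES. There were 3 libraries for each of 4 genotypes, each genotype a single laboratory strain. The ssu72-C13S strain has a changed catalytic cysteine in Ssu72, a phosphatase of the RNA polymerase II tail that belongs to the cleavage and polyadenylation machinery. The asp1-H397A strain has a changed pyrophosphatase domain in Asp1, a bifunctional enzyme that makes and removes inositol pyrophosphates. The triple mutant, asp1-H397A ssu72-C13S aps1∆, carries both point alleles and also lacks aps1, the gene of a separate pyrophosphatase that acts on inositol pyrophosphates. The wild type (WT) carries none of these changes. No strain with aps1∆ alone and no strain with both point alleles but an intact aps1 was analysed here. Nothing in the labels says that replicates came from separate transformants or days, so the tests measure the spread between these cultures.

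Inositol pyrophosphates are signalling molecules that act, among other routes, through the termination of transcription. In fission yeast, some long non-coding RNAs that are transcribed across a neighbouring gene's promoter keep that gene low. Early or late termination of such transcripts can change the level of the gene downstream. The phosphate acquisition genes are a known example. The 55 genes described here include none of these, but mitochondrial enzymes and import factors, regulators of mating and meiosis, RNA processing factors, metabolic enzymes and 12 genes whose product is annotated only as uncharacterized.

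Total counts per library lay between 23115806 and 29124916. The deleted gene aps1 had 35.9, 34.9 and 32.8 CPM in the triple mutant libraries, against 130, 130 and 112 CPM in WT. Its level was thus lower but not near 0, and which part of the gene was removed is not given in the sources used here. Libraries asp1-H397A replicate 3 and triple mutant replicate 1 stood apart from their replicates. Across 5627 genes, their log2 deviation from the mean of their other replicates had a correlation with transcript A content of 0.783 and 0.750. The median deviation of the 55 genes was 0.47 and 0.38 above that mean. The genes' own median A content was 31.6%, against 30.3% in other coding genes. The part of this in the levels below was not tested. Without both libraries the median L of the 55 genes was −0.91 in ssu72-C13S, −1.003 for asp1-H397A and −1.31 for the triple mutant.

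The 55 genes together took 0.404% ± 0.000941 of all counts in ssu72-C13S, 0.441% ± 0.0435 of those in asp1-H397A and 0.375% ± 0.0350 of those in the triple mutant, against 0.772% ± 0.0309 in WT (SD, n = 3 each). Their median L, which the choice of genes fixed to be low, was −0.91 in ssu72-C13S, −0.86 for asp1-H397A and −1.19 for the triple mutant. Among the other 4770 genes at or above 5 CPM it was −0.07, −0.16 and −0.27 in the same order. A mean at least 2-fold below that of WT was found for 23 genes in ssu72-C13S, 22 genes in asp1-H397A and 39 genes in the triple mutant. Of the other 4770 genes, 107, 49 and 169 had such a mean in the same order. The choice of genes bears on the counts among the 55. Scaling bears on these sizes. With library totals the median log2 value against WT over all genes fitted was −0.0692 for ssu72-C13S, −0.225 for asp1-H397A and −0.318 for the triple mutant; with TMM factors it was −0.0397, −0.00145 and −0.00894 in the same order. With TMM factors the median fitted log2 value of the 55 was −0.89, −0.64 and −0.90 in the same order, with all 55 below 0 in each mutant, and 25 genes met the rule. No test against WT is given for these genes, since that contrast chose them.

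All 3 ssu72-C13S libraries lay below all 3 WT libraries in 55 of the 55 genes, where 44.1% of the 4825 genes did so. The same held for asp1-H397A in 54, where 35.2% of the 4825 did so, and for the triple mutant in 55, where 55.1% did so. These counts follow from the choice of genes. The exception was spf31, a DNAJ protein, at 15.4, 13.8 and 25.6 CPM in asp1-H397A, against 33.8, 24.98 and 29.5 CPM in WT. The triple mutant had the lowest mean for 38 genes, ssu72-C13S for 9 and asp1-H397A for 8. Over the 4825 genes the triple mutant had the lowest of the 3 mutant means in 51.5%, ssu72-C13S in 23.1% and asp1-H397A in 25.4%.

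**Figure D1:**
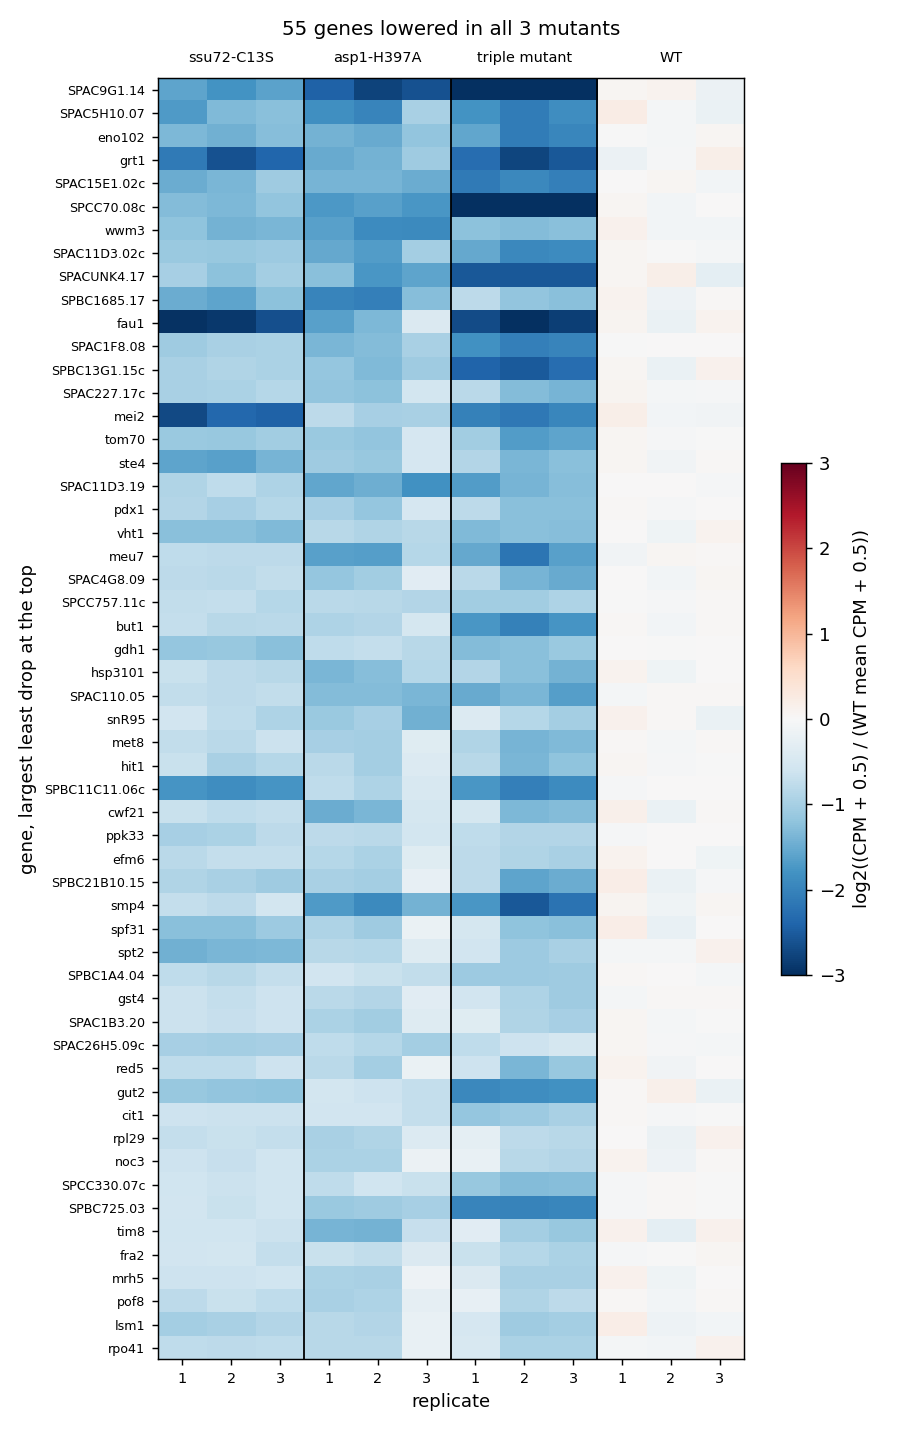
Each row is one of the 55 genes and each column a library, with ssu72-C13S, asp1-H397A and the triple mutant left of WT; the colour gives log2 of the library's CPM plus 0.5 over the WT mean CPM plus 0.5, limited to the range from −3 to 3. Genes are ordered by the least of their 3 drops, and the paler columns are asp1-H397A replicate 3 and triple mutant replicate 1, the highest of their replicates in 39 and 40 of the 55 genes, as in 57.2% and 63.0% of the 4825 genes.

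The threshold cut through a continuous range. Just inside it were rpo41, the mitochondrial RNA polymerase, with a highest L of −0.60, and lsm1, a subunit of the complex that leads mRNA to decapping, with −0.61. Just outside were mpc1, at −0.5965 in ssu72-C13S, and atp10, at −0.596 in asp1-H397A. The lsm1 gene had 64.2, 66.3 and 70.8 CPM in ssu72-C13S, 73.7, 70.5 and 113 CPM in asp1-H397A and 91.2, 62.5 and 63.9 CPM in the triple mutant, against 150, 118 and 124 CPM in WT. Its highest mutant library, asp1-H397A replicate 3, came close to the lowest WT library. Membership moved with single libraries: 43 genes met the rule without asp1-H397A replicate 2, 92 without asp1-H397A replicate 3 and 90 without WT replicate 2, and 33 of the 55 met it with each of the 12 libraries left out in turn.

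The mutants were then compared with each other, a contrast the rule did not use directly, although it held all 3 mutants below a bound. Here and below, log2 differences come from edgeR's quasi-likelihood test on counts scaled by TMM, with Benjamini-Hochberg adjustment over 6189 genes, and a call is an adjusted p under 0.05. All 55 genes were tested. The triple mutant against asp1-H397A gave 25 calls, 21 lower and 4 higher, where 36.8% of all genes tested were called, 21.1% lower and 15.7% higher. The median difference was −0.30, against −0.01 over all genes. Between the triple mutant and ssu72-C13S 28 were called, 14 lower and 14 higher, where 56.3% of all genes were called, 27.5% lower and 28.8% higher, and the median was 0.05. Between asp1-H397A and ssu72-C13S 24 were called, 17 higher and 7 lower in asp1-H397A, where 54.0% of all genes were called, 29.7% higher and 24.3% lower, and the median was 0.17. The split depended on scaling. With library totals the triple mutant was lower than ssu72-C13S in 21 genes and higher in 3, and asp1-H397A was higher than ssu72-C13S in 9 and lower in 9. With upper-quartile scaling the same splits were 17 lower and 7 higher, and 12 higher and 10 lower. When both libraries that stood apart were left out, the triple mutant was lower than asp1-H397A in 27 genes and higher in 7.

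Patterns over the 3 mutants were not uniform. A set of 18 genes was called in no pair of mutants, where 26% of all genes were, and the lack of a call does not show that their levels were alike. Another 11 were lower in the triple mutant than in both single mutants, where 10.2% of all genes were. They were SPAC9G1.14, SPAC15E1.02c, SPCC70.08c, SPACUNK4.17, SPAC1F8.08, SPBC13G1.15c, but1, smp4, gut2, SPCC330.07c and SPBC725.03. The call of smp4 against asp1-H397A (edgeR adjusted p 0.0453) was lost with any one ssu72-C13S or WT library left out, among other settings. In 5 genes, grt1, fau1, tom70, SPBC1A4.04 and cit1, ssu72-C13S and the triple mutant were both lower than asp1-H397A and not called apart from each other, where 5.27% of all genes had this pattern. In grt1 and fau1 each of these calls held in 21 of 21 other settings. Leaving out asp1-H397A replicate 1 ended both calls in SPBC1A4.04, at an adjusted p of 0.0787 and 0.0987, and with library totals the triple mutant was called below ssu72-C13S (edgeR adjusted p 0.000153). The call between asp1-H397A and ssu72-C13S was lost in 6 of 21 settings for tom70, with library totals (adjusted p 0.368) and without any one ssu72-C13S library or asp1-H397A replicate 3 among them, and its call between the triple mutant and asp1-H397A was lost without asp1-H397A replicate 3 or triple mutant replicate 2 or 3. For cit1 the pattern rests on the main scaling, as its values below show. The reverse pattern, with asp1-H397A and the triple mutant both lower than ssu72-C13S and not called apart, was found in SPAC110.05 alone among the 55, where 11.7% of all genes had it.

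**Figure D2:**
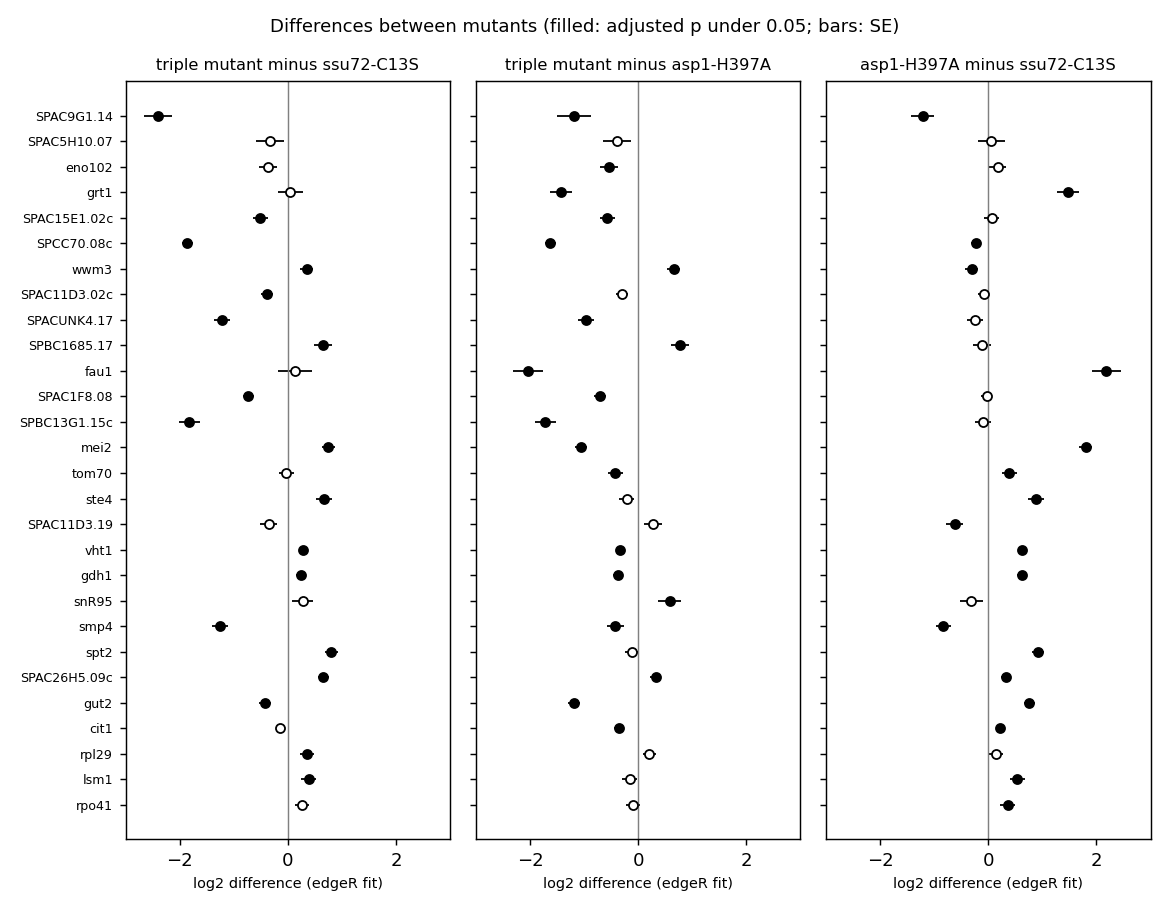
Fitted log2 differences between mutants for 28 of the genes, one panel per pair, with bars for 1 SE and filled points where the adjusted p was under 0.05. In the panel of the triple mutant minus asp1-H397A most filled points lie left of 0, from fau1 at −2.04 and SPBC13G1.15c at −1.72, while wwm3, SPBC1685.17, snR95 and SPAC26H5.09c lie to its right.

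Of the regulators of sexual differentiation, mei2 and ste4 were among the genes of the group with the largest drops in ssu72-C13S. The mei2 gene encodes an RNA-binding protein that commits cells to meiosis. It had 11.5, 14.8 and 14.1 CPM in ssu72-C13S, 44.9, 38.7 and 39.3 CPM in asp1-H397A and 18.7, 17.2 and 19.9 CPM in the triple mutant, against 88.9, 73.6 and 72.0 CPM in WT. The 4 genotypes did not overlap, and the means were 17.2%, 52.4% and 23.8% of that of WT in the order of the mutants just given. The triple mutant was lower than asp1-H397A, with a difference of −1.06 (SE 0.117, edgeR adjusted p 1.55e-05) and higher than ssu72-C13S by 0.75 (SE 0.121, edgeR adjusted p 0.000138). The asp1-H397A strain was higher than ssu72-C13S by 1.80 (SE 0.120, edgeR adjusted p 3.04e-08).

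The ste4 gene encodes an adaptor of the kinase cascade that carries the mating pheromone signal. Its levels were 7.98, 7.78 and 9.24 CPM in ssu72-C13S, 11.8, 11.2 and 17.6 CPM in asp1-H397A and 13.4, 9.33 and 10.2 CPM in the triple mutant, against 25.9, 23.3 and 25.8 CPM in WT. Every mutant library lay below every WT library, and the triple mutant and asp1-H397A overlapped. It was higher in asp1-H397A than in ssu72-C13S by 0.88 (SE 0.143, edgeR adjusted p 0.000148). It was higher in the triple mutant than in ssu72-C13S by 0.67 (SE 0.144, edgeR adjusted p 0.00133), a call lost with library totals (0.40, adjusted p 0.0825). A gene induced in meiosis, meu7, annotated as an alpha-amylase, had 6.46, 6.30 and 6.30 CPM in ssu72-C13S, 3.28, 3.23 and 6.06 CPM in asp1-H397A and 3.57, 2.08 and 3.29 CPM in the triple mutant, against 10.4, 11.8 and 11.6 CPM in WT. Its triple mutant libraries lay below all ssu72-C13S libraries, with a log2 difference of −0.83 (SE 0.205, edgeR adjusted p 0.00374).

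Other mating and pheromone genes were tested against WT. The rule bears on these counts too, since it had taken mei2 and ste4 out of the list. A gene of at least 5 CPM with L of −0.6 or lower in ssu72-C13S and the triple mutant stayed only if asp1-H397A was above −0.6. The counts in asp1-H397A are therefore partly fixed by the choice of genes. Of 20 such genes, 12 were lower and 3 higher in ssu72-C13S, where 29.1% of all genes were lower and 25.5% higher. In asp1-H397A 3 were lower and 5 higher, where 18.6% of all genes were lower and 25.8% higher; 5 were called without WT replicate 2 or 3. In the triple mutant 13 were lower and 3 higher, where 25.7% of all genes were lower and 26.2% higher. The medians of the 20 genes were −0.44, 0.08 and −0.62 in the same order. A separate list of meiosis and sporulation genes, with 13 tested and 0 in the group, did not fall in this way. In ssu72-C13S 8 were higher and 0 lower than in WT, in asp1-H397A 4 and 1, and in the triple mutant 8 and 2. Their medians were 0.62, 0.28 and 0.54, to be read against the same shares. Both lists were drawn up with earlier results of these data known. The genes named next, all of the mating list, were picked after their values were seen.

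The ste11 gene, which encodes the transcription factor that switches on mating genes when nitrogen runs out, had 24.8, 25.7 and 27.3 CPM in ssu72-C13S, 80.6, 71.1 and 59.99 CPM in asp1-H397A and 33.4, 31.3 and 32.4 CPM in the triple mutant, against 70.6, 63.9 and 63.1 CPM in WT. Only the asp1-H397A libraries overlapped those of WT. The log2 differences from WT were −1.32 for ssu72-C13S (edgeR adjusted p 6.37e-07), 0.33 for asp1-H397A (adjusted p 0.0253) and −0.71 for the triple mutant (adjusted p 0.000132). The call in asp1-H397A was lost in 7 of 21 other settings, among them without asp1-H397A replicate 1 (adjusted p 0.183) or 2 (0.0818) and without WT replicate 2 (0.0676) or 3 (0.0833). The ssu72-C13S strain also fell below WT in mfm2, a gene for the M-factor pheromone, at −1.56 (edgeR adjusted p 6.50e-08), and in spk1, the pheromone-responsive MAP kinase, at −1.21 (edgeR adjusted p 4.67e-07). In the triple mutant mfm2 fell by 0.78 (edgeR adjusted p 2.85e-05) and spk1 fell by 0.87 (edgeR adjusted p 8.52e-06) on the log2 scale. In asp1-H397A neither passed the test, with values of 0.23 (adjusted p 0.0826) for mfm2 and −0.14 (adjusted p 0.267) for spk1. The kinase byr1, upstream of Spk1, had the values −0.64, 0.06 and −0.42, of which the first and last passed the test. Other list genes were called higher than in WT. The byr2 gene was higher in all 3 mutants, at 0.30, 0.46 and 0.41. In ssu72-C13S and the triple mutant sxa2 was higher, at 0.68 and 0.61. In asp1-H397A and the triple mutant ste7 was higher, at 0.53 and 0.59. In ssu72-C13S and asp1-H397A sxa1 was higher, at 0.34 and 0.26, and in asp1-H397A alone ste6 was higher, at 0.35. The 3 list genes that were lower in asp1-H397A than in WT were fus1, a formin of cell fusion, at −0.96 (edgeR adjusted p 0.0003), map2, for the P-factor pheromone, at −0.79 (edgeR adjusted p 0.000709), and mam2, for the P-factor receptor, at −0.34 (edgeR adjusted p 0.0254, lost in 6 of 21 other settings, among them without asp1-H397A replicate 3 or any one WT library).

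**Figure D3:**
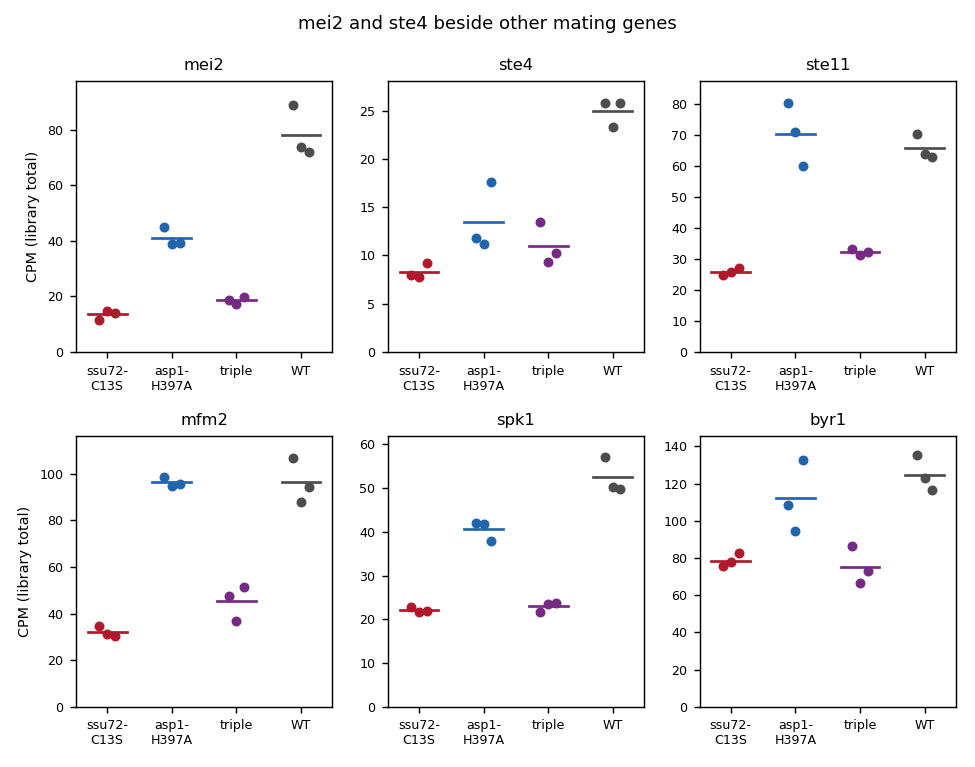
CPM by library total of mei2, ste4 and 4 further mating genes, each point a library, each bar the mean of 3, with the mutants left of WT and axes from 0. In ssu72-C13S and the triple mutant all points lie below WT for the 6 genes, whereas asp1-H397A points overlap WT for ste11, mfm2 and byr1. The rule bears on this difference, since the further genes are those it left when it took genes low in every mutant.

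Mitochondrial functions were represented by 7 genes, with a median L of −0.77 for ssu72-C13S, −0.64 for asp1-H397A and −1.07 for the triple mutant. This grouping by role, like the others here, was made after the genes were known. The gut2 gene encodes the mitochondrial glycerol-3-phosphate dehydrogenase, which feeds glycerol into respiration. It had 34.9, 33.7 and 33.1 CPM in ssu72-C13S, 52.8, 50.3 and 46.8 CPM in asp1-H397A and 19.96, 20.8 and 21.5 CPM in the triple mutant, against 79.4, 85.7 and 67.1 CPM in WT. No 2 genotypes overlapped. The triple mutant was lower than asp1-H397A, with a difference of −1.18 (SE 0.111, edgeR adjusted p 3.48e-06) and lower than ssu72-C13S, with a difference of −0.42 (SE 0.111, edgeR adjusted p 0.00515), and asp1-H397A was higher than ssu72-C13S by 0.76 (SE 0.108, edgeR adjusted p 4.66e-05).

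Citrate synthase, encoded by cit1, opens the tricarboxylic acid cycle. The gene had 466, 458 and 457 CPM in ssu72-C13S, 481, 478 and 438 CPM in asp1-H397A and 323, 337 and 368 CPM in the triple mutant, against 738, 704 and 712 CPM in WT. The single mutants overlapped each other, and the triple mutant lay below both. The fitted difference of the triple mutant from asp1-H397A was −0.36 (SE 0.0844, edgeR adjusted p 0.00473; 0.0795 without asp1-H397A replicate 1), and that from ssu72-C13S was −0.14 (SE 0.0843, adjusted p 0.175), since TMM scaling narrows the gap seen in CPM. With library totals the difference from ssu72-C13S was −0.43 (edgeR adjusted p 1.71e-05). The asp1-H397A strain was called above ssu72-C13S at 0.22 (edgeR adjusted p 0.0409), but this call was lost in 16 of 21 other settings, among them library totals (0.02, adjusted p 0.79), DESeq2 (adjusted p 0.127) and the omission of any one of 9 libraries (adjusted p 0.0539 to 0.317), all but asp1-H397A replicate 3 and triple mutant replicates 1 and 3. The tom70 gene, for a receptor of the outer membrane import complex, had 183, 179 and 191 CPM in ssu72-C13S, 182, 173 and 281 CPM in asp1-H397A and 192, 123 and 133 CPM in the triple mutant, against 411, 384 and 394 CPM in WT. Its high asp1-H397A and triple mutant values came from the libraries that stood apart.

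Of the other 4 mitochondrial genes, tim8, an import chaperone of the intermembrane space, averaged 44.8 CPM ± 0.969 in ssu72-C13S, 31.4 ± 9.82 CPM in asp1-H397A and 39.7 ± 12.7 CPM in the triple mutant, against 68.9 ± 11.4 in WT (SD, n = 3 each). The pdx1 gene, annotated as a pyruvate dehydrogenase component, averaged 52.5, 54.1 and 46.4 CPM in the mutants in the same order, against 98.8 CPM in WT. The rpo41 gene averaged 40.1, 45.2 and 40.0 CPM, against 68.9 CPM in WT, and mrh5, an RNA helicase of mitochondrial gene expression, averaged 37.5, 36.7 and 33.6 CPM, against 57.6 CPM in WT. No pair of mutants was called for tim8, pdx1 or mrh5, and rpo41 was higher in asp1-H397A than in ssu72-C13S by 0.36 (SE 0.131, edgeR adjusted p 0.0333), a call lost in 6 of 21 other settings, with an adjusted p of 0.0728, 0.0783 and 0.0793 without ssu72-C13S replicate 1, 2 or 3 and 0.133 without asp1-H397A replicate 3.

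Uptake and nitrogen assimilation were represented by some of the most abundant genes of the group. The gdh1 gene encodes the NADP-dependent glutamate dehydrogenase, which fixes ammonium into glutamate. It had 427, 437 and 402 CPM in ssu72-C13S, 567, 586 and 536 CPM in asp1-H397A and 388, 398 and 443 CPM in the triple mutant, against 962, 945 and 967 CPM in WT. The asp1-H397A libraries lay between the other mutants and WT, and the triple mutant overlapped ssu72-C13S. In the fit asp1-H397A was higher than ssu72-C13S by 0.62 (SE 0.0857, edgeR adjusted p 3.82e-05), and the triple mutant was lower than asp1-H397A, with a difference of −0.37 (SE 0.0855, edgeR adjusted p 0.00409; 0.0587 without asp1-H397A replicate 1).

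The vht1 gene, for the plasma membrane transporter of vitamin H (biotin), behaved alike in order. It had 274, 275 and 262 CPM in ssu72-C13S, 365, 348 and 370 CPM in asp1-H397A and 260, 276 and 270 CPM in the triple mutant, against 661, 599 and 703 CPM in WT. It too was higher in asp1-H397A than in ssu72-C13S, by 0.62 (SE 0.0740, edgeR adjusted p 9.35e-06). The fitted difference of the triple mutant from ssu72-C13S was 0.28 for vht1 and 0.24 for gdh1, but with library totals it was −0.00956 and −0.0419, so no direction is given. Among 15 other genes of nitrogen and amino acid uptake, 11 were higher and 1 lower than in WT in ssu72-C13S, 8 higher and 0 lower for asp1-H397A, and 7 higher and 5 lower for the triple mutant by edgeR's test. Over all genes tested 25.5% were higher and 29.1% lower in ssu72-C13S, 25.8% and 18.6% in asp1-H397A, and 26.2% and 25.7% in the triple mutant. Among 17 other hexose transport and glucose-repressed genes, the list that holds gut2, 9 were higher and 5 lower for ssu72-C13S, 5 and 5 for asp1-H397A, and 7 and 8 for the triple mutant, to be read against the same shares. The rule had taken gdh1 and gut2 out of these lists, so the choice of genes bears on the counts.

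Both genes annotated only as transporters had closely spaced replicates. SPCC330.07c had 65.9, 64.1 and 65.9 CPM in ssu72-C13S, 59.3, 65.7 and 63.1 CPM in asp1-H397A and 45.5, 40.2 and 40.9 CPM in the triple mutant, against 97.7, 103 and 100.1 CPM in WT. The triple mutant was lower than asp1-H397A, with a difference of −0.49 (SE 0.0698, edgeR adjusted p 0.000133) and lower than ssu72-C13S, with a difference of −0.35 (SE 0.0697, edgeR adjusted p 0.000772). SPCC757.11c averaged 44.3, 42.2 and 37.7 CPM in the mutants, against 75.9 CPM in WT, and no pair of mutants was called.

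RNA and ribosome factors made up 8 genes with modest drops, with a median L of −0.72 for ssu72-C13S, −0.71 for asp1-H397A and −0.79 for the triple mutant. The most abundant of the 55 genes was rpl29, for a protein of the large ribosomal subunit. It had 873, 899 and 876 CPM in ssu72-C13S, 725.4, 767 and 1075 CPM in asp1-H397A and 1162, 834 and 799 CPM in the triple mutant, against 1456, 1273 and 1571 CPM in WT. The highest library of asp1-H397A and of the triple mutant was the one that stood apart, and both lay below the lowest WT library. Among the 130 other ribosomal protein genes tested, 82 were lower and 1 higher than in WT in ssu72-C13S, 13 lower and 24 higher for asp1-H397A, and 10 lower and 50 higher for the triple mutant. The shares over all genes were 29.1% lower and 25.5% higher for ssu72-C13S, 18.6% and 25.8% for asp1-H397A, and 25.7% and 26.2% for the triple mutant. In asp1-H397A 22 were called without its replicate 1 and 58 without its replicate 3. The last 2 splits turned with scaling. With library totals 76 were lower and 16 higher for asp1-H397A, and 72 lower and 30 higher for the triple mutant. The rule had taken rpl29 out of this list, which bears on the counts as well.

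The other RNA factors were red5, which takes part in nuclear elimination of meiotic transcripts, pof8, which assembles telomerase RNA, cwf21 of the spliceosome, hit1, known in Saccharomyces cerevisiae from the assembly of small nucleolar ribonucleoproteins, noc3 of ribosome biogenesis, and lsm1. Their mutant means lay between 45.1% and 65.6% of the WT mean. The small nucleolar RNA snR95 is not polyadenylated as a mature RNA and was near the lower limit of the selection. It had 3.25, 2.78 and 2.43 CPM in ssu72-C13S, 2.08, 2.27 and 1.55 CPM in asp1-H397A and 3.65, 2.55 and 2.25 CPM in the triple mutant, against 5.60, 5.20 and 4.34 CPM in WT. Its higher level in the triple mutant than in asp1-H397A (0.59, SE 0.209, edgeR adjusted p 0.0415) was lost in 10 of 21 other settings, with an adjusted p between 0.0523 and 0.167 without any one of 7 libraries and of 0.383 without both that stood apart. The 7 were ssu72-C13S replicate 2, asp1-H397A replicates 1 and 3, triple mutant replicates 1 and 2 and WT replicates 1 and 2.

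Chromatin and transcription were represented by spt2 and grt1. Spt2 is a chaperone of histones H3 and H4 that acts during transcription. Its gene had 21.5, 22.5 and 22.8 CPM in ssu72-C13S, 33.1, 32.4 and 45.4 CPM in asp1-H397A and 39.2, 27.4 and 29.8 CPM in the triple mutant, against 56.5, 56.5 and 64.4 CPM in WT. Here ssu72-C13S stood lowest without overlap: asp1-H397A was higher by 0.92 (SE 0.117, edgeR adjusted p 1.65e-05) and the triple mutant by 0.80 (SE 0.117, edgeR adjusted p 5.73e-05). The transcription factor gene grt1 had 1.66, 1.06 and 1.33 CPM in ssu72-C13S, 2.84, 3.04 and 4.03 CPM in asp1-H397A and 1.44, 0.911 and 1.12 CPM in the triple mutant, against 7.93, 8.76 and 10.2 CPM in WT. In contrast to spt2, the triple mutant overlapped ssu72-C13S and was lower than asp1-H397A, with a difference of −1.43 (SE 0.204, edgeR adjusted p 0.000139).

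Several enzymes of the group differed sharply between mutants. The putative methyltransferase gene SPCC70.08c had 30.5, 29.8 and 33.2 CPM in ssu72-C13S, 22.6, 24.2 and 22.4 CPM in asp1-H397A and 7.93, 6.92 and 6.40 CPM in the triple mutant, against 79.7, 71.8 and 76.9 CPM in WT. The means were 41.0%, 30.3% and 9.31% of that of WT, with no overlap. The triple mutant was lower than asp1-H397A, with a difference of −1.62 (SE 0.0966, edgeR adjusted p 4.73e-08) and lower than ssu72-C13S, with a difference of −1.86 (SE 0.0963, edgeR adjusted p 2.93e-09).

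The fau1 gene encodes 5-formyltetrahydrofolate cyclo-ligase, an enzyme of folate metabolism. It had 1.92, 2.03 and 2.51 CPM in ssu72-C13S, 5.60, 6.93 and 13.4 CPM in asp1-H397A and 2.44, 1.31 and 2.16 CPM in the triple mutant, against 19.3, 15.8 and 19.8 CPM in WT. Both strains with ssu72-C13S stood low and overlapped, and the asp1-H397A libraries spread widely, with the one that stood apart highest. The asp1-H397A strain was higher than ssu72-C13S by 2.18 (SE 0.270, edgeR adjusted p 1.28e-05), and the triple mutant was lower than asp1-H397A, with a difference of −2.04 (SE 0.275, edgeR adjusted p 8.57e-05). The coding gene acl1 overlaps fau1 on the opposite strand over 1723 bases. It averaged 727, 566 and 544 CPM in the mutants in this order, against 668 CPM in WT. The strand setting of the counting is not given, so the low fau1 counts are uncertain. The part of acl1 reads in them was not tested.

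SPACUNK4.17, an NAD-binding dehydrogenase, had 33.5, 28.8 and 33.1 CPM in ssu72-C13S, 28.1, 19.8 and 22.2 CPM in asp1-H397A and 11.2, 11.3 and 11.2 CPM in the triple mutant, against 71.1, 76.4 and 55.7 CPM in WT. The triple mutant libraries were the lowest and nearly equal, at −0.97 from asp1-H397A (SE 0.148, edgeR adjusted p 0.000223) and −1.22 from ssu72-C13S (SE 0.147, edgeR adjusted p 1.03e-05). The same order held for SPBC725.03, a pyridoxamine phosphate oxidase of vitamin B6 metabolism, at 30.1 CPM ± 1.13 in ssu72-C13S, 22.0 ± 0.956 CPM in asp1-H397A and 11.3 ± 0.225 CPM in the triple mutant, against 46.4 ± 1.15 in WT (SD, n = 3 each). The thioredoxin family gene but1 stood at 9.94 ± 0.447, 10.1 ± 1.67 and 4.51 ± 0.503 CPM in the mutants in this order, against 17.5 ± 0.840 CPM in WT (SD, n = 3 each).

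The opposite order was found for SPAC26H5.09c, an oxidoreductase of the Gfo/Idh/MocA family. It had 335, 330 and 333 CPM in ssu72-C13S, 394, 365 and 328 CPM in asp1-H397A and 393, 431 and 461 CPM in the triple mutant, against 697, 654 and 644 CPM in WT. The asp1-H397A libraries overlapped those of both other mutants. Least lowered was the triple mutant, higher than ssu72-C13S by 0.65 (SE 0.0996, edgeR adjusted p 8.38e-05) and than asp1-H397A by 0.33 (SE 0.0993, edgeR adjusted p 0.0200), a call that was lost without triple mutant replicate 2 (adjusted p 0.103) or 3 (0.0818). For eno102, an enolase gene other than the abundant eno101, the levels were 2.40, 2.19 and 2.55 CPM in ssu72-C13S, 2.24, 2.05 and 2.75 CPM in asp1-H397A and 2.00, 1.20 and 1.38 CPM in the triple mutant, against 6.76, 6.54 and 7.20 CPM in WT. The 3 mutants stood close together, and the triple mutant was lower than asp1-H397A, with a difference of −0.53 (SE 0.167, edgeR adjusted p 0.0231), a call lost in 7 of 21 other settings, among them without asp1-H397A replicate 1 (adjusted p 0.0534) or 3 (0.0621) and without triple mutant replicate 2 (0.107) or 3 (0.0674). SPAC11D3.02c, an acetyltransferase, averaged 85.9 CPM ± 1.82 in ssu72-C13S, 71.0 ± 18.4 CPM in asp1-H397A and 54.3 ± 8.41 CPM in the triple mutant, against 186 ± 7.88 in WT (SD, n = 3 each).

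**Figure D4:**
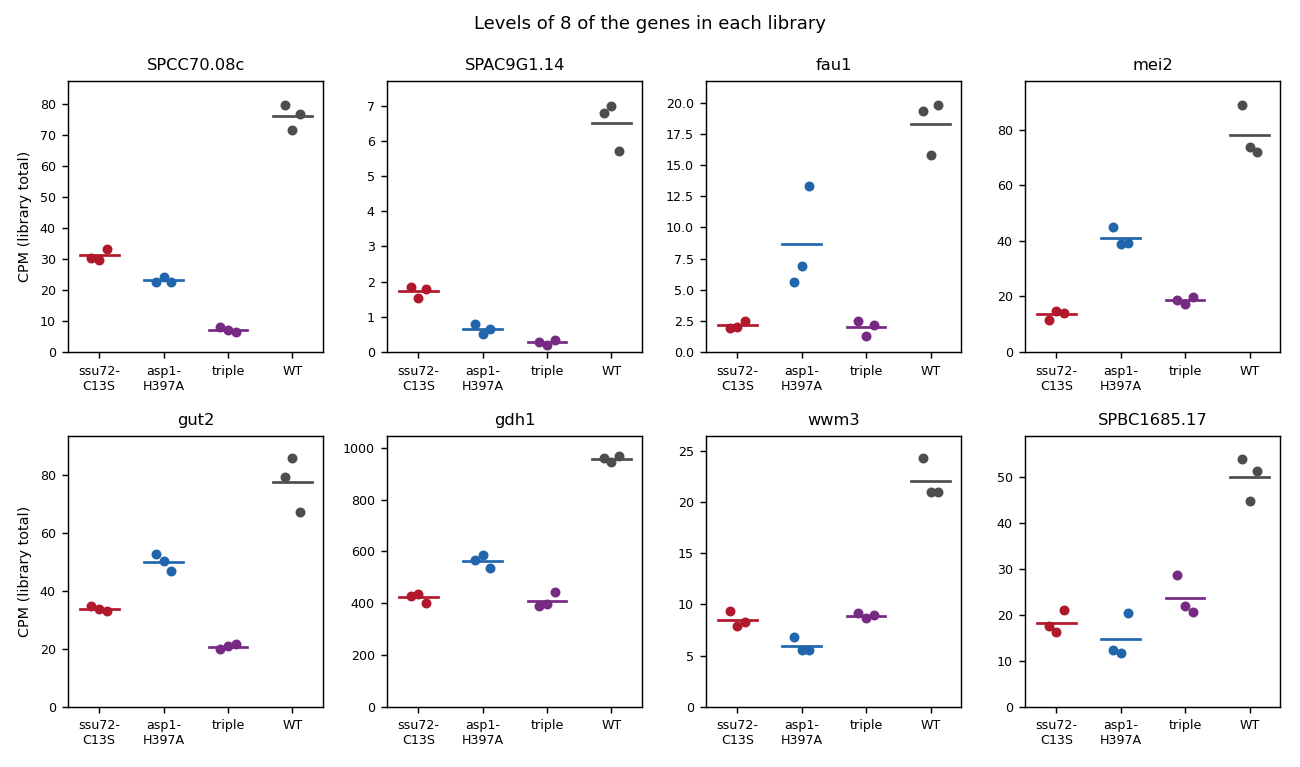
CPM by library total of 8 of the genes, each point a library and each bar the mean of 3, with the mutants left of WT and each axis from 0. SPCC70.08c, SPAC9G1.14 and gut2 are lowest in the triple mutant, fau1 and mei2 are lowest in ssu72-C13S and the triple mutant, and wwm3 and SPBC1685.17 are not lowest in the triple mutant.

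The uncharacterized genes included the largest drop in mean CPM relative to WT. SPAC9G1.14 had 1.85, 1.53 and 1.80 CPM in ssu72-C13S, 0.801, 0.513 and 0.638 CPM in asp1-H397A and 0.281, 0.182 and 0.346 CPM in the triple mutant, against 6.80, 6.999 and 5.71 CPM in WT. The genotypes formed 4 separate steps, on 7, 5 and 8 counts in the triple mutant, with means at 26.5%, 10.01% and 4.15% of that of WT. The triple mutant was lower than asp1-H397A, with a difference of −1.19 (SE 0.312, edgeR adjusted p 0.00907; 0.058 without asp1-H397A replicate 1 and 0.0562 without triple mutant replicate 2) and lower than ssu72-C13S, with a difference of −2.40 (SE 0.262, edgeR adjusted p 3.88e-06).

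SPBC13G1.15c had 2.36, 2.46 and 2.39 CPM in ssu72-C13S, 2.00, 1.72 and 2.15 CPM in asp1-H397A and 0.561, 0.474 and 0.649 CPM in the triple mutant, against 5.29, 4.32 and 5.62 CPM in WT. The triple mutant stood alone at the bottom, at −1.72 from asp1-H397A (SE 0.194, edgeR adjusted p 1.87e-05) and −1.82 from ssu72-C13S (SE 0.189, edgeR adjusted p 2.45e-06). SPAC1F8.08 averaged 10.9 CPM ± 0.50 in ssu72-C13S, 9.40 ± 1.55 CPM in asp1-H397A and 5.43 ± 0.525 CPM in the triple mutant, against 22.3 ± 0.327 in WT (SD, n = 3 each). SPAC15E1.02c averaged 7.95, 7.22 and 4.57 CPM, against 20.3 CPM in WT, again lowest in the triple mutant.

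In SPBC1685.17 and in wwm3 the triple mutant was not the lowest. SPBC1685.17 had 17.6, 16.2 and 21.0 CPM in ssu72-C13S, 12.3, 11.7 and 20.5 CPM in asp1-H397A and 28.7, 21.8 and 20.5 CPM in the triple mutant, against 53.9, 44.7 and 51.3 CPM in WT. In CPM the ssu72-C13S libraries overlapped those of both other mutants, while the fit placed the triple mutant above asp1-H397A by 0.77 (SE 0.165, edgeR adjusted p 0.00263) and above ssu72-C13S by 0.65 (SE 0.164, edgeR adjusted p 0.00396; 0.139 with library totals). The wwm3 gene had 9.31, 7.90 and 8.26 CPM in ssu72-C13S, 6.85, 5.57 and 5.50 CPM in asp1-H397A and 9.18, 8.64 and 8.91 CPM in the triple mutant, against 24.2, 20.9 and 20.9 CPM in WT. Its asp1-H397A libraries lay below those of the triple mutant, with a difference of 0.66 (SE 0.121, edgeR adjusted p 0.000946). The smp4 gene averaged 21.3 CPM ± 1.86 in ssu72-C13S, 10.5 ± 1.84 CPM in asp1-H397A and 7.43 ± 2.19 CPM in the triple mutant, against 34.3 ± 2.81 in WT (SD, n = 3 each), and was lower in asp1-H397A than in ssu72-C13S, with a difference of −0.83 (SE 0.145, edgeR adjusted p 0.00028).

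Non-coding RNAs overlap some of these genes, and their levels took no part in the choice. In the annotation 30 of the 55 genes overlap another gene, 27 on the opposite strand and 5 on the same strand. The share over all genes was not computed, so these counts are not read as a trait of the group. Libraries were made with a kit that keeps the strand, but the strand setting of the counting is not given in the sources used here, so counts of overlapping genes are uncertain. The same-strand partners are ash2 for SPBC13G1.15c, SPAC4G8.08 for SPAC4G8.09, tti1 for gdh1, SPNCRNA.1367 for SPBC1685.17 and SPNCRNA.228 for fra2. Of the 14 overlapping SPNCRNA genes, 13 could be tested. In ssu72-C13S 5 were higher and 4 lower than in WT, where 28.0% of SPNCRNA genes were higher and 29.0% lower. In asp1-H397A 3 were higher and 3 lower, where 5.81% were higher and 47.5% lower, and in the triple mutant 2 were higher and 3 lower, where 16.5% were higher and 47.9% lower. With library totals the last 2 splits were 1 higher and 7 lower in both strains. Without WT replicate 2, 3 partners were called in asp1-H397A, and without both libraries that stood apart, 8 in the triple mutant.

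The 3 partners plotted were picked after their values were seen, because they moved in 3 different ways. Opposite eno102, SPNCRNA.1302 had 18.8, 20.5 and 17.1 CPM in ssu72-C13S, 19.2, 19.4 and 19.1 CPM in asp1-H397A and 19.6, 18.3 and 20.8 CPM in the triple mutant, against 15.2, 14.4 and 15.3 CPM in WT. It was higher than in WT in all 3, by 0.35 for ssu72-C13S (edgeR adjusted p 0.00735), 0.59 for asp1-H397A (adjusted p 0.000306) and 0.69 for the triple mutant (adjusted p 4.84e-05). Opposite grt1, SPNCRNA.1301 had 1.26, 1.02 and 0.82 CPM in ssu72-C13S, 1.12, 0.99 and 1.71 CPM in asp1-H397A and 0.12, 0.18 and 0.13 CPM in the triple mutant, against 3.16, 3.17 and 1.79 CPM in WT. It was lower than in WT, at −1.37 for ssu72-C13S (edgeR adjusted p 0.000472), −0.88 for asp1-H397A (adjusted p 0.0104) and −3.88 for the triple mutant (adjusted p 1.85e-06). This was the direction of grt1, but triple mutant replicates 1 and 3 held only 3 counts each. The coding gene fah1 also overlaps grt1 on the opposite strand, over 1644 bases. The fitted differences of fah1 from WT were −1.52, −2.27 and −3.065 in the same order. As the strand setting is not given, these shared directions are uncertain.

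Opposite hsp3101, which encodes a glyoxalase that removes methylglyoxal, SPNCRNA.1100 had 22.2, 20.5 and 22.5 CPM in ssu72-C13S, 5.20, 5.13 and 5.42 CPM in asp1-H397A and 5.13, 4.99 and 4.41 CPM in the triple mutant, against 6.76, 5.47 and 5.32 CPM in WT. It was higher than in WT in ssu72-C13S, by 1.92 (SE 0.106, edgeR adjusted p 9.22e-09), and gave 0.07 for asp1-H397A (adjusted p 0.643) and 0.04 for the triple mutant (adjusted p 0.798). The hsp3101 gene itself had 18.3, 16.7 and 16.2 CPM in ssu72-C13S, 11.1, 11.9 and 16.1 CPM in asp1-H397A and 15.7, 12.03 and 10.7 CPM in the triple mutant, against 31.5, 26.9 and 29.8 CPM in WT. It was thus low in all 3 mutants, with no pair called apart, while SPNCRNA.1100 was high in ssu72-C13S alone. Another RNA opposite hsp3101, SPNCRNA.1099, overlaps that gene over 242 bases. SPNCRNA.1099 was higher than in WT in ssu72-C13S, by 0.90 (edgeR adjusted p 3.26e-05). It gave −0.06 for asp1-H397A (adjusted p 0.734) and −0.31 for the triple mutant (adjusted p 0.0648).

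**Figure D5:**
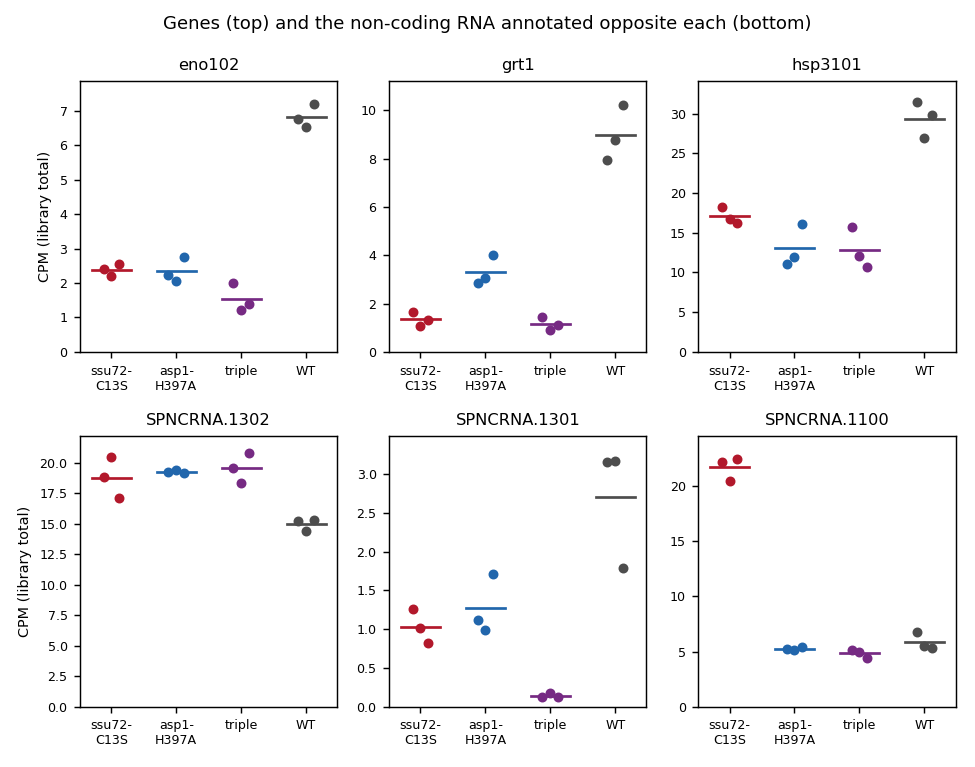
CPM by library total of eno102, grt1 and hsp3101 (top) over a non-coding RNA annotated on the opposite strand of each (bottom). Each point is a library and each bar the mean of 3, with mutants left of WT. For hsp3101 the partner shown is SPNCRNA.1100, and SPNCRNA.1099 is not shown. The gene is low in all mutants in each column, whereas the partner is high in all 3 for eno102, low in all 3 for grt1 and high only in ssu72-C13S for hsp3101.

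The genes were spread over all 3 chromosomes, with some near chromosome ends. Among the 50 coding genes nearest to an end in the annotation's gene order were 9 of the 53 coding members (17.0%), against 201 of 4746 other coding genes at or above 5 CPM (4.24%). These were hsp3101, grt1, SPCC757.11c, eno102, SPCC70.08c, SPAC1F8.08, SPAC11D3.19, SPAC11D3.02c and SPCC330.07c. The number of 50 was set after the positions were seen, and no test was made. SPAC1F8.08 and SPAC11D3.19 are next to each other. SPAC11D3.19 averaged 6.07 CPM ± 0.441 in ssu72-C13S, 3.43 ± 0.466 CPM in asp1-H397A and 3.90 ± 0.596 CPM in the triple mutant, against 11.5 ± 0.185 in WT (SD, n = 3 each).

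Between SPAC11D3.19 and SPAC11D3.02c lies SPAC11D3.01c, which is not of the group. It had 45.0, 41.9 and 45.0 CPM in ssu72-C13S, 2.96, 3.26 and 4.86 CPM in asp1-H397A and 21.8, 16.1 and 16.3 CPM in the triple mutant, against 18.5, 15.8 and 19.1 CPM in WT. Its ssu72-C13S libraries lay above all WT libraries, its asp1-H397A libraries lay below them and its triple mutant libraries overlapped them. Over the 92 immediate neighbours that were at or above 5 CPM and not of the group, the median L was −0.03 for ssu72-C13S, −0.16 for asp1-H397A and −0.27 for the triple mutant. These are close to the medians of all other genes given above. Neighbours within the group and those under 5 CPM were left out, and the latter differed. Beside grt1, fah1 had L of −1.03, −1.47 and −1.73 in the same order, and beside SPCC70.08c, mug9 had 0.10, −0.03 and 0.25.

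As transcripts, the 53 coding genes had a median length of 1410 bases, against 1741 bases in the other coding genes, and 33 of them (62.3%) had no annotated intron, against 50.7%. Their median GC content was 36.3%, against 37.3%. A window from 250 bases before to 50 bases after the annotated start was searched on both strands for 7 short motifs, of which 6 are reported here and none contains another. TGACGT, the core bound by the stress factor Atf1, was present in 10 of the 53 genes (18.9%), against 5.69% of the other coding genes. The 10 were SPAC15E1.02c, wwm3, SPBC11C11.06c, SPBC21B10.15, smp4, SPAC1B3.20, SPAC26H5.09c, gut2, cit1 and SPBC725.03. The TATA box letters TATAAA were in 50.9%, against 48.3%. The forkhead motif GTAAACA was in 13.2%, against 16.3%. The motif of zinc finger regulators of nitrogen and iron genes, GATAAG, was in 13.2%, against 11.5%. The core of the Ste11 box, TTCTTTG, was in 7.55%, against 9.84%, mei2 and ste4 among them. The MBF motif ACGCGT was in 3.77%, against 3.12%. These matches describe letters in a window and not binding.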

How the data were processed

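Per the labels' protocols, RNA was purified with hot acid phenol and poly(A)+ RNA was made into stranded libraries. The authors deposited raw counts per gene, 1 column per library. Per the submitters' processing notes, HISAT2 2.1.0, SAMtools, HTSeq 0.10.0, DESeq2 and the build ASM294v2 were used; the strand setting of the counting is not given in the sources used here. Of 6987 rows, 1 repeated an identifier with 0 counts and was dropped, and 0 columns were left unused. Names, overlaps, gene order and base composition came from RefSeq ASM294v3 by identifier (6833 by locus tag, 13 by synonym, 140 unmatched), so no coordinates are given.

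CPM in the text are counts over the library total. Genes were filtered with edgeR 4.0.16 (filterByExpr, minimum count 10), scaled by TMM (factors 0.8466 to 1.126) and fitted in one quasi-likelihood model of 12 libraries, with Benjamini-Hochberg adjustment over 6189 genes. Depth was 23115806 to 29124916 counts per library, and intervals and limits would cover counting error only. The genes and the lists were chosen with earlier results of these data known. Genes named by rule were those with the largest least drop, the most abundant, those with the largest differences between mutants, list genes, those beside the threshold and adjacent ones; others were named after their values were seen. DESeq2 1.42.0, other scalings and filters, fits of 2 genotypes, a replicate block, leaving out libraries and other thresholds of the rule were tried. Scripts were tested on simulated data.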

Additional observations from a re-analysis of the deposited data

How the results depend on the processing

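The number of genes that met the rule was 25 with TMM scaling, 35 with upper-quartile scaling and 26 with RLE scaling, 11 with a threshold of −1 and 283 with −0.4, 43 to 92 with 1 library left out, and 114 without both libraries that stood apart (52 of the 55 among them). Members called between the triple mutant and asp1-H397A numbered 16 when only those genotypes were fitted, against 25. With 1 library left out the 3 counts between mutants were 19 to 30 (triple mutant and asp1-H397A), 21 to 31 (triple mutant and ssu72-C13S) and 18 to 28 (asp1-H397A and ssu72-C13S). With the replicate block the counts were 25, 27 and 23, and it moved none by over 1.5 times. Same-numbered libraries had correlations from −0.718 to 0.625. The libraries that stood apart enter these values, with 0.851 between asp1-H397A replicate 3 and triple mutant replicate 1. Whether the numbers pair the cultures therefore cannot be told from them. DESeq2 called 28, 28 and 25. With library totals the triple mutant minus ssu72-C13S turned to −0.00956 for vht1, −0.0419 for gdh1 and −0.0892 for SPBC11C11.06c; the median of all genes in this contrast is −0.267 with that scaling and 0.0127 with TMM.

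Overlapping non-coding RNAs called in the triple mutant numbered 8 with library totals and 8 without both libraries that stood apart, against 5, and in asp1-H397A 3 to 6 with 1 library left out (the lowest without WT replicate 2). Mating genes called in asp1-H397A numbered 5 when only 2 genotypes were fitted and 5 to 9 with 1 library left out (the lowest without WT replicate 2 or 3), against 8. Ribosomal protein genes called in asp1-H397A numbered 58 with upper-quartile scaling, 92 with library totals, 82 without both libraries and 22 to 58 with 1 library left out, against 37. In the triple mutant they numbered 102 with library totals and 94 without both libraries, against 60. The cause of these changes was not tested. Of the 6 genes with a WT mean under 10 CPM, precision is limited by low counts.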
